A study of Mus musculus with 22 samples.

Results

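The comparison described here asked what adding 1 copy of the NANCI-CreERT2:RFP allele changed in lung epithelium of mice that already carried 1 Nkx2.1-GFP allele. It used the 6 of 22 libraries of embryonic age E18.5 that share the Nkx2.1-GFP allele: 3 from Nkx2.1-GFP/+ embryos, called Nkx, and 3 from NANCI-CreERT2:RFP/+:Nkx2.1-GFP/+ embryos, called Double. The 6 libraries were selected by their genotype labels and the comparison ran over all 13750 genes of the E18.5 tables. The comparison, the genes named and the gene lists were chosen with earlier results of these data known. The other 2 genotypes of that age, wild type (NANCI-+/+, called WT) and NANCI-CreERT2:RFP/CreERT2:RFP (called NANCI), with 3 libraries each, entered the same fit. At E18.5 the cells were enriched on magnetic beads through EpCAM, an adhesion protein of epithelial surfaces. Neither the part of the Nkx2-1 gene that the GFP allele replaces nor the way the libraries were built is given in the sources used here. The labels do not say that libraries of 1 genotype came from separate animals, so the p-values measure the spread between these libraries, which may be technical in part.

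NKX2-1 is the homeodomain transcription factor that marks lung endoderm from its first appearance. In the lung it drives surfactant genes of alveolar type 2 cells and secretory genes of the airway, and lungs that lose it take on features of stomach and gut. NANCI is a long noncoding RNA transcribed next to Nkx2-1 and reported to act on its expression, and the study's title names them as a buffering pair. CreERT2 is a recombinase fused to part of an estrogen receptor, and RFP is a red fluorescent protein.

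Values are log2 expression, quantile-normalized within an age, so every library has nearly the same set of values and a difference of 1 means a doubling after that scaling. In the 6 libraries the epithelial adhesion gene Cdh1 lay between 15.71 and 16.09 and Epcam between 13.11 and 14.00. The leukocyte gene Ptprc was far lower, at 3.40 to 5.18 in the Nkx libraries, 1.92 to 4.98 in the Double ones and 6.17 to 6.84 in WT, and the macrophage gene Adgre1 was at the lowest value in 2 of the 6. Kdr, an endothelial gene that alveolar epithelium also expresses, was between 11.07 and 11.80, while Pecam1 stayed between 5.47 and 7.79. The values carry no read totals, so depth is unknown. The sex pattern was the same in both groups: libraries 1 and 2 had female levels of Xist and library 3 a male pattern, although Nkx 3 still read 11.34 for Xist against 7.91 in Double 3. In bulk libraries such as these, fewer cells of a type and less RNA per cell cannot be told apart.

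Adding the NANCI allele moved few genes past the test. 1 of 13750 genes, Mucl3, passed at an adjusted p of 0.05 in limma's moderated test (0.00727%), and it rose. At an unadjusted p under 0.05 there were 559 genes (4.07%), 303 of them higher in Double (2.2%) and 256 lower. If no gene differed, a share of genes equal to that threshold would be expected under it, so 559 is no excess. In the same fit the Nkx libraries differed from WT in 1007 genes (7.32%) and the Double libraries from WT in 2008 (14.6%). Those 2 comparisons use the same WT libraries and share the Nkx or the Double libraries with the one described here, so they are given as counts side by side and not as support.

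Nkx2-1 itself showed no detectable difference between the groups. It read 14.77, 14.73 and 14.95 in Nkx 1, 2 and 3 and 14.84, 14.69 and 14.90 in Double 1, 2 and 3, with WT at a mean of 14.75. The ranges overlapped, and the fitted difference was -0.01 with a 95% interval of -0.31 to 0.29 (limma adjusted p = 1). A difference within that interval was not detectable with 3 libraries a group, and the reading does not check the labels, since reads from the GFP allele cannot be placed.

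Of the genes around Nkx2-1 on chromosome 12, 8 were measured, Nkx2-1 included, and none passed. Foxa1, an endoderm pioneer factor (GRCm38 chr12:57540628-57546916), differed by 0.16 and Mbip, a neighbour of Nkx2-1, by 0.10. Ralgapa1, Ttc6, Mipol1 and Brms1l lay between -0.10 and 0.24. Nfkbia, the inhibitor of NF-kappa B, was the only one of the 8 whose groups did not overlap: it read 10.98, 10.90 and 10.82 in Nkx and 11.20, 11.41 and 11.23 in Double, a difference of 0.38 ± 0.16 (SE). Both groups lay below the WT mean of 11.65, and in NANCI Nfkbia differed from WT by -0.58, the opposite direction. NANCI itself is not analysed here.

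The sequences just upstream of the genes, gene models aside, that passed in at least 1 of the 2 fits described below (without and with a replicate block) are printed here because the allele added lies beside the gene of a DNA-binding factor. RefSeq promoter entries (GRCm38.p6) existed for 6 of 8 genes looked up, Mucl3, Spp1, Syt8, Sprr1a, Plekha6 and Tub, all higher in Double, and for neither H19 (higher) nor Scgb1a1 (lower). Each line gives the 250 bases before the listed start, 5′ to 3′ on the gene's strand. The Tub window was searched in the same way and is not printed. Capitals mark CAAGTG or its reverse complement CACTTG, the core that NKX2 factors bind and at the same time a CANNTG E-box, and TGAGTCA or its reverse complement TGACTCA, the site of the FOS and JUN factor AP-1. The second motif was chosen after the windows had been read.
Mucl3, chr17:35643696-35643945, - strand: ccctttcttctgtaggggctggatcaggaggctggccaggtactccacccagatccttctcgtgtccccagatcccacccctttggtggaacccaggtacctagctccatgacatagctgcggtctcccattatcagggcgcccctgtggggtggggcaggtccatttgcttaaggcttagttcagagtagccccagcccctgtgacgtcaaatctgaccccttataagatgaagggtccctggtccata
Spp1, chr5:104434861-104435110, + strand: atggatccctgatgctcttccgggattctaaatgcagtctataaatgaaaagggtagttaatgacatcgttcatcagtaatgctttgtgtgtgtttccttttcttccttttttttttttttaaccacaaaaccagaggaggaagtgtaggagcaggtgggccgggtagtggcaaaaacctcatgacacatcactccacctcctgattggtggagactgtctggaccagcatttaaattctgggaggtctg
Syt8, chr7:142434600-142434849, + strand: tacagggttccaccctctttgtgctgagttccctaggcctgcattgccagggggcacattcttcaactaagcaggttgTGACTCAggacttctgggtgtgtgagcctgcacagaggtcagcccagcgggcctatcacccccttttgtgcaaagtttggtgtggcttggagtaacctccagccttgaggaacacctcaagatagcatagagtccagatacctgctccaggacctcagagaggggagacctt
Sprr1a, chr3:92485882-92486131, - strand: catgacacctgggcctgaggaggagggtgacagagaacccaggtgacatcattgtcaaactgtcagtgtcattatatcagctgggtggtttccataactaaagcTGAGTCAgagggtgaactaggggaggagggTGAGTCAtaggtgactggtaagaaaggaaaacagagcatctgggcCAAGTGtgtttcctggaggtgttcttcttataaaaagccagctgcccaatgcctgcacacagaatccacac
Plekha6, chr1:133245847-133246096, + strand: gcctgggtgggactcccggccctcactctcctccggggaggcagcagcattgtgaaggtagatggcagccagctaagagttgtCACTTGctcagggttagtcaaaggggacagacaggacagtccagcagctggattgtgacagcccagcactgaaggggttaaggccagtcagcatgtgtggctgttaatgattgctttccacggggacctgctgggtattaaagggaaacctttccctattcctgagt
CAAGTG or CACTTG occurred in 11.6% of all 32851 listed windows of this length (3813 windows) and in 2 of the 6 looked up here, those of Sprr1a, 71 bases before its start, and Plekha6, 167 bases before. TGAGTCA or TGACTCA occurred in 4.5% of all windows and in 2 of the 6: Sprr1a held it at 146 and 116 bases before its start and Syt8 at 172. The Mucl3, Spp1 and Tub windows held neither. A stretch just after the listed start was found in a GENCODE transcript for every gene but Sprr1a. The listed start of Sprr1a lies 14 bases from the GENCODE one, and why its stretch was not found was not tested. For Plekha6 and Tub the listed start lies 81887 and 60542 bases inside the gene as GENCODE draws it, so their windows stand for 1 of the possible starts. So do those of Spp1 and Syt8, with 2 and 3 listed starts, of which the one nearest the GENCODE start was used. A match is a string of letters and not a binding site.

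Mucl3, the gene that passed, encodes a mucin-like protein of epithelial surfaces and lies at chr17:35635752-35643695 on the minus strand (GRCm38). It read 9.21, 9.68 and 9.05 in Nkx and 10.96, 11.83 and 11.69 in Double. All 3 Double libraries stood above all 3 Nkx libraries, and WT and NANCI libraries were lower still, with means of 7.67 and 8.12. The difference was 2.18 ± 0.25 (SE), a 4.52-fold rise, with a limma adjusted p of 0.0127. The same-numbered differences were 1.74, 2.15 and 2.64. Its call changed with the libraries included, while the difference changed little. Without Double 2, Double 3, Nkx 1 or Nkx 3 the limma adjusted p was 0.0893, 0.164, 0.0793 and 0.133, at differences of 2.01, 2.08, 2.13 and 2.05. Without Double 1 or Nkx 2 Mucl3 still passed (limma adjusted p 0.00271 and 0.0165), at differences of 2.45 and 2.36. With the 2 groups fitted alone the limma adjusted p was 0.0658.

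The libraries carry the same replicate numbers in both groups, and the labels do not say what a number shares. Same-numbered libraries deviated from their group means together for numbers 1 and 2; for number 3 the correlation of 0.18 was 0.063 without Xist and Y-linked genes, below the 0.203 of Nkx 3 with Double 1. With the number as a block in a fit of the 6 libraries, 9 genes passed (0.0655%), 7 higher in Double (0.0509%) and 2 lower (0.0145%). They were Mucl3, Spp1, H19, Syt8, Sprr1a, Tub and Plekha6 above, and Scgb1a1 and the gene model Gm13394 below. In a fit of the same 6 libraries without the block 3 genes passed, and with the block over all 12 libraries Mucl3 alone did, so 8 of the 9 calls are lost there. In that fit of 12 the limma adjusted p was 0.0677 for Spp1 and Tub, 0.161 for Syt8, Sprr1a and Plekha6, 0.472 for Gm13394, 0.485 for H19 and 0.536 for Scgb1a1. Values given below as with the block come from the fit of 6 libraries. That fit leaves 2 residual degrees of freedom, against 8 in the main fit. Its estimate of each gene's spread therefore draws largely on the other genes.

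Spp1, osteopontin, a secreted phosphoprotein of matrix and mucosal surfaces, showed the largest difference among the genes named by rule. It read 4.92, 5.45 and 6.06 in Nkx and 9.68, 9.69 and 9.69 in Double. The Double libraries were nearly identical and far above Nkx, while WT averaged 2.65 with 1 library at its lowest value. The difference was 4.21 ± 0.62 with a limma adjusted p of 0.103, and 0.00129 with the replicate block.

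Syt8, a synaptotagmin of vesicle traffic, read 6.11, 5.45 and 5.63 in Nkx and 8.56, 9.89 and 9.57 in Double. Sprr1a, a small proline-rich protein of the cornified envelope of squamous cells, read 3.94, 4.86 and 5.18 in Nkx and 7.56, 7.92 and 7.88 in Double. In both genes every Double library was above every Nkx library, by more than 2 units. The differences were 3.61 ± 0.56 for Syt8 and 3.13 ± 0.58 for Sprr1a, with limma adjusted p-values of 0.117 and 0.256, and 0.0179 and 0.0193 with the replicate block. In WT the means were 2.96 and 3.12.

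Tub, the tubby protein of ciliary membrane traffic, read 7.01, 8.0 and 7.32 in Nkx and 9.02, 9.35 and 9.03 in Double. Plekha6, a pleckstrin-homology protein of epithelial junctions, read 9.90, 9.83 and 9.70 in Nkx and 11.09, 11.69 and 10.80 in Double. Neither gene's groups overlapped, and both stood in the order WT, NANCI, Nkx, Double by their means. The differences were 1.69 ± 0.32 and 1.38 ± 0.25, with a limma adjusted p of 0.256 for each, and 0.0369 and 0.0377 with the block.

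Esr1, estrogen receptor alpha, followed the CreERT2 allele across all 4 genotypes. It read 4.74, 4.45 and 3.81 in Nkx and 6.89, 6.64 and 5.75 in Double. With 2 copies of the CreERT2 allele, in NANCI, the mean was 7.12, against 4.10 in WT. The difference of Double from Nkx was 2.1 ± 0.41 (limma adjusted p = 0.31) and that of NANCI from WT 3.02 ± 0.41 (limma adjusted p = 0.0822). The difference between them, -0.93, had a limma adjusted p of 0.928 in the interaction test. Of the 8 measured estrogen receptor genes and targets, 6 lay above 0 with a median of 0.17, and Esr1 was the only one with an unadjusted p under 0.05. Greb1, a classical estrogen target, was at -0.91 with overlapping groups. CreERT2 carries estrogen receptor sequence, and whether its reads were counted at Esr1 was not tested.

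Igf2, the imprinted fetal growth factor, and H19, the imprinted noncoding RNA beside it on chromosome 7, stood among the most abundant genes that differed. Igf2 read 14.62, 15.15 and 15.27 in Nkx and 15.95, 17.03 and 15.98 in Double. H19 read 14.37, 16.25 and 15.69 in Nkx and 17.03, 18.45 and 17.24 in Double. Library 2 was the highest of its group for H19 in both genotypes, which the same-numbered differences remove: they were 2.66, 2.21 and 1.55. The differences were 1.30 ± 0.26 for Igf2 (limma adjusted p = 0.321, and 0.0947 with the block) and 2.14 ± 0.46 for H19 (0.419, and 0.0152 with the block). The other 16 measured genes of the imprinted list lay between -0.52 (Peg10) and 0.49 (Ndn).

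The remaining genes named as higher, none of which passed, differed by 0.65 to 0.92. Mpzl2, an epithelial adhesion protein of the immunoglobulin family, was 0.71 ± 0.14 higher, and Rab15, a GTPase of endosomal recycling, 0.65 ± 0.14. Ddc, the decarboxylase that makes serotonin and dopamine, read 9.86, 9.60 and 9.78 in Nkx and 10.31, 10.65 and 10.63 in Double. Ddc was the 1 gene of the 24 that lay below WT in both genotypes yet nearer to WT in Double, with a WT mean of 10.89. All 24 genes named by rule had groups that did not overlap, against 8.6% of all genes (1183), but small p-values chose them, so that count describes the choice.

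**Figure D1:**
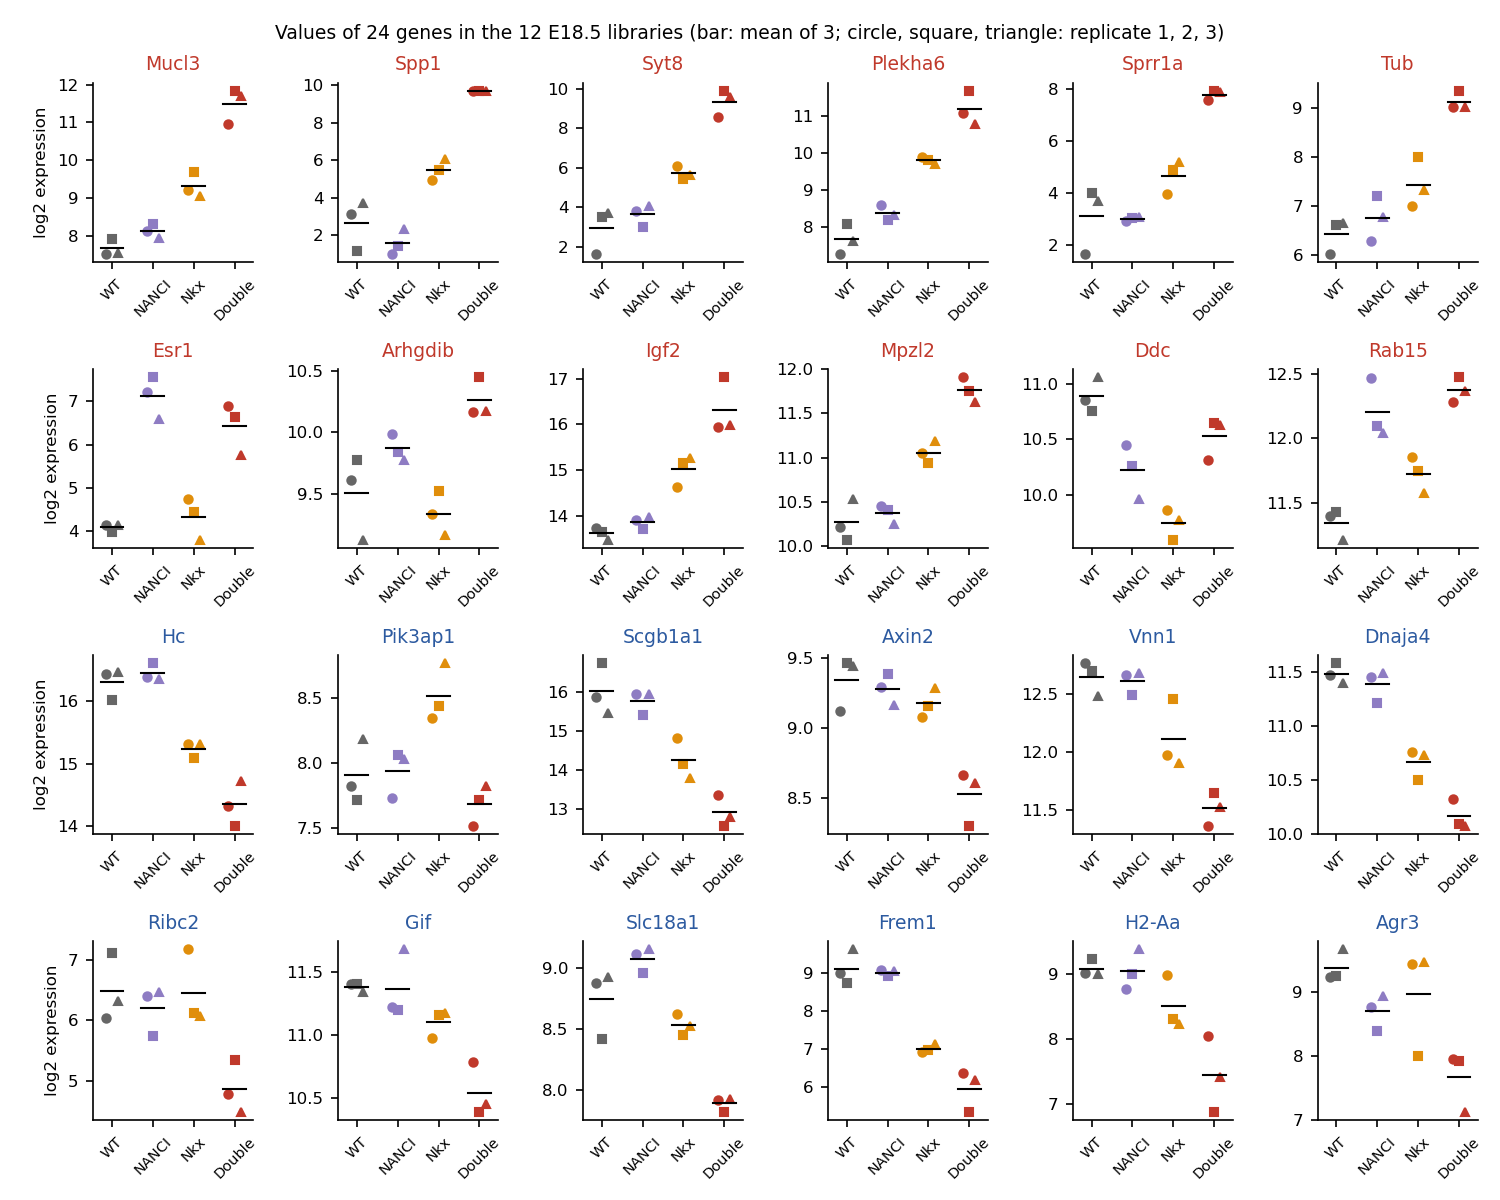
Log2 expression of the 24 genes named by rule in the 12 E18.5 libraries: columns are genotypes, each symbol is a library (circle, square and triangle for replicate 1, 2 and 3) and the bar is the mean of 3, with a separate vertical scale per gene. Titles in red mark genes higher in Double and in blue genes lower; for Mucl3 the 3 Double libraries lie between 10.96 and 11.83 and the 3 Nkx libraries between 9.05 and 9.68.

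On the lower side no gene passed at an adjusted p of 0.05 without the block, with 256 at an unadjusted p under 0.05 (1.86%). Scgb1a1, the club cell secretory protein and the defining product of airway club cells, read 14.81, 14.16 and 13.79 in Nkx and 13.36, 12.57 and 12.80 in Double. Every Double library lay below every Nkx library, and both groups lay below the WT mean of 16.01. The difference was -1.34 ± 0.33, a 2.54-fold lower level, with a limma adjusted p of 0.57, and 0.0152 with the replicate block.

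Hc, complement component 5, an abundant product of alveolar type 2 cells, read 15.32, 15.09 and 15.31 in Nkx and 14.32, 14.00 and 14.72 in Double, a difference of -0.90 ± 0.19 (limma adjusted p = 0.426). Frem1, a basement membrane protein, was -1.05 ± 0.29 lower, from 6.93 to 7.14 in Nkx and 5.34 to 6.36 in Double, with a WT mean of 9.12. Dnaja4, an HSP40 co-chaperone, was at -0.50 ± 0.13 and Vnn1, a pantetheinase, at -0.60 ± 0.15. For all the genes named as lower except Pik3ap1 the means stood in the order WT, Nkx, Double from high to low.

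Axin2, a Wnt target that restrains Wnt signalling, kept that order with little difference between WT and Nkx. It read 9.08, 9.16 and 9.29 in Nkx, near the WT mean of 9.34, and 8.66, 8.30 and 8.61 in Double, a difference of -0.65 ± 0.16. Pik3ap1, an adaptor of phosphoinositide 3-kinase, was above WT in Nkx (8.52 against 7.91) and below it in Double (7.68), a difference of -0.84 ± 0.21. Slc18a1, a vesicular monoamine transporter, differed by -0.64 ± 0.17 and Gif, gastric intrinsic factor, by -0.56 ± 0.15.

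Ribc2, a microtubule inner protein of motile cilia, read 7.17, 6.13 and 6.06 in Nkx and 4.79, 5.34 and 4.48 in Double, a difference of -1.58 ± 0.41. Agr3, a disulfide isomerase family member of ciliated and secretory airway cells, read 9.44, 8.0 and 9.47 in Nkx and 7.95, 7.92 and 7.13 in Double. For Agr3 the 2 groups nearly touch, since Nkx 2 lies 0.08 above Double 2. Its difference was -1.31 ± 0.36. H2-Aa, an MHC class II chain, was at -1.07 ± 0.29.

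**Figure D2:**
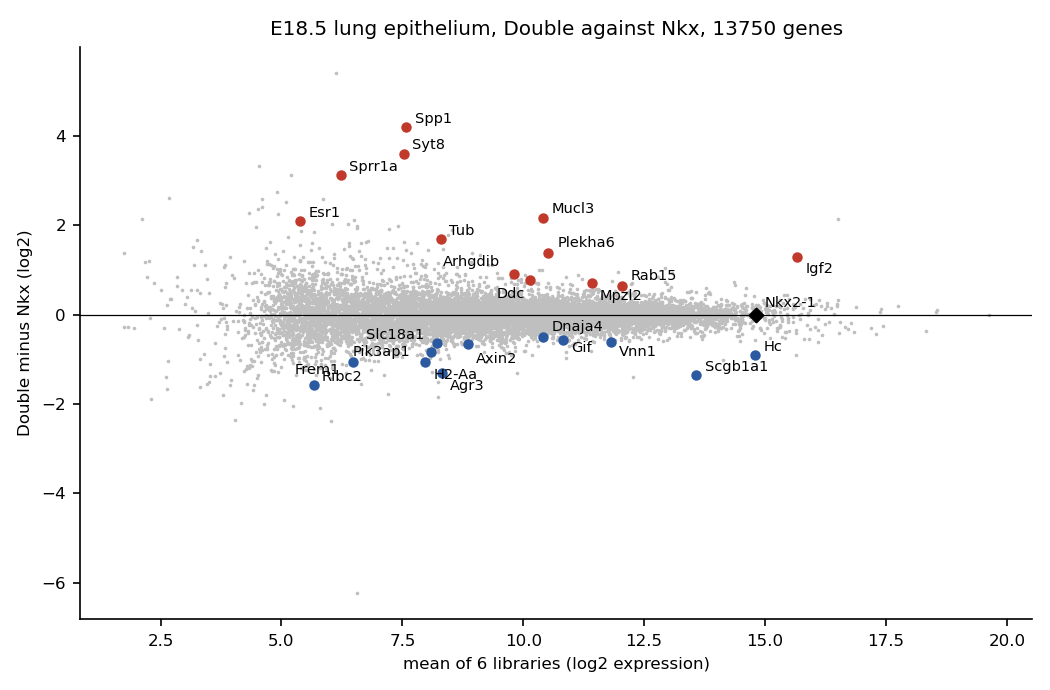
Difference of Double from Nkx (vertical, log2) against the mean of the 6 libraries (horizontal, log2) for 13750 genes, with the genes named by rule in red (higher) and blue (lower) and Nkx2-1 as a black diamond. Nkx2-1 sits at -0.01, Spp1 at 4.21 and Scgb1a1 at -1.34.

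Differences between same-numbered libraries correlated weakly across genes from pair to pair. Their median size over all genes was 0.188 for number 1, 0.188 for number 2 and 0.24 for number 3. Across genes the Pearson correlations between pairs were 0.128 for numbers 1 and 2, 0.058 for 1 and 3 and 0.249 for 2 and 3, where genes are not independent replicates. Of 13750 genes 4399 had 3 differences of one sign (32%), 2246 all higher and 2153 all lower.

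Large differences in all 3 pairs were mostly increases. There were 39 genes whose 3 same-numbered differences were all at least 1 in size with one sign (0.284%), 31 higher in Double (0.225%) and 8 lower (0.0582%). Beside the genes already described, the higher ones included Krt4, a keratin of stratified mucosa, at 1.60, Pla2g10, a secreted phospholipase, at 1.64, Loxl2, a collagen crosslinking oxidase, at 1.99 and Ackr3, a scavenging chemokine receptor, at 1.64. Loxl2 read 6.02, 7.16 and 6.07 in Nkx and 8.41, 8.56 and 8.24 in Double. Krt4 read 6.41, 7.44 and 7.18 in Nkx and 8.24, 9.15 and 8.43 in Double, with no overlap in either gene. None of these 4 passed: their limma adjusted p-values were 0.443 to 1 without the block and 0.0662 to 0.125 with it. They were singled out after their values were seen.

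**Figure D3:**
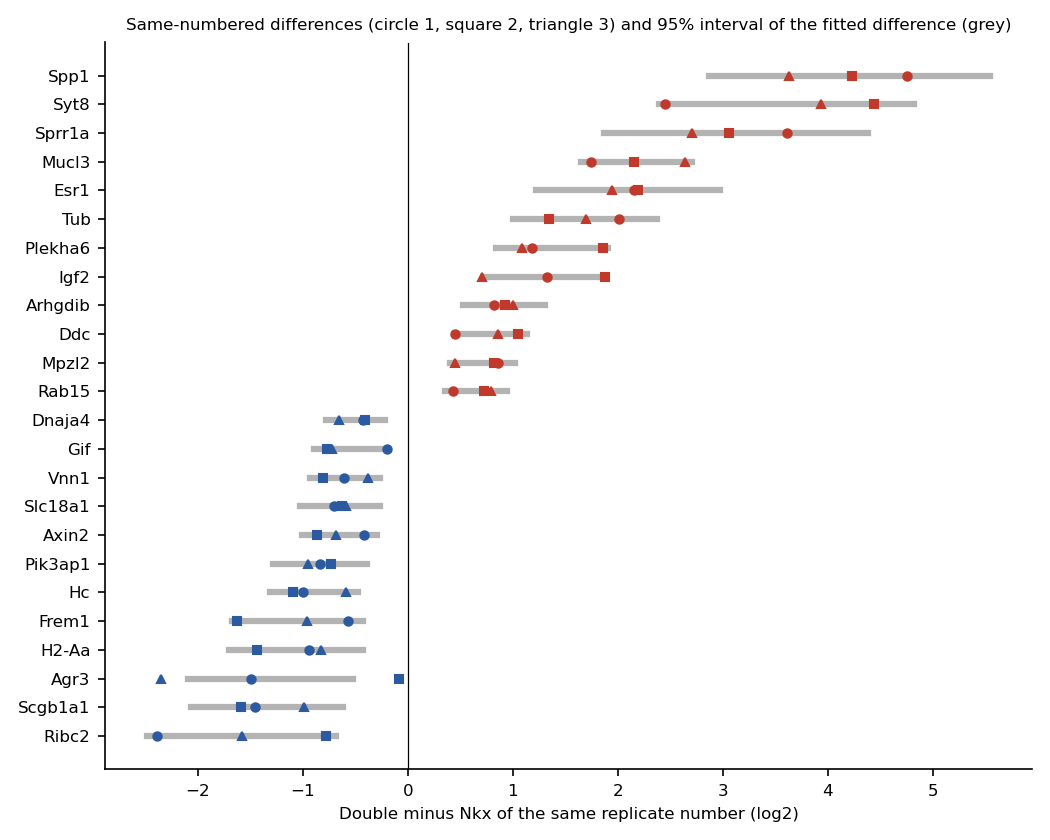
Double minus Nkx of the same replicate number (symbols: circle 1, square 2, triangle 3) for the 24 genes named by rule, on a log2 scale, with the 95% interval of the fitted difference as a grey bar. All 3 symbols lie on one side of 0 for every gene shown, which must be so where the groups do not overlap. Agr3 has the widest relative spread, from -2.35 to -0.08.

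Gene lists of lung cell types and processes were then described by their members. No member of any list passed without the block. For reference, over all 13750 genes the median difference was -0.001, with 6851 above 0 and 6899 below, 646 genes (4.7%) with Double above Nkx without overlap and 537 (3.91%) below.

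Cell cycle genes lay above 0 almost as a body. Of 50 measured, 49 were above 0, with a median of 0.43 and a range of -0.04 to 0.89. The groups did not overlap for 27 of the 50, all with Double above. The mean over the list read 9.47, 9.59 and 9.42 in Nkx and 9.79, 9.999 and 9.97 in Double, against 8.55 to 8.83 in WT. Each Double library was above each Nkx library. Aurkb, a kinase of the chromosome passenger complex, read 8.08, 8.0 and 7.65 in Nkx and 8.50, 9.02 and 8.89 in Double (0.89 ± 0.22). Mki67, the proliferation antigen, differed by 0.56 ± 0.22 and Ccnd2, a G1 cyclin, by 0.55 ± 0.18. The median of the list stayed between 0.34 and 0.51 over 25 other ways of fitting or leaving out libraries.

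Genes of basal and squamous epithelium were few in these libraries, with 13 of 28 measured. Of these 11 lay above 0, with a median of 0.57, and 6 had Double above Nkx without overlap. The list's mean read 8.32, 8.39 and 8.14 in Nkx and 8.72, 9.37 and 9.30 in Double, so the groups did not overlap. Sprr1a led the list, followed by Krt17, a keratin of basal cells, at 1.86 with overlapping groups, and by Krt4. Perp, a desmosome protein and p53 target, read 12.48, 12.31 and 12.33 in Nkx and 12.82, 12.89 and 12.78 in Double (0.46 ± 0.12). Lamb3, a laminin chain of the basal membrane and the most abundant member, was at 0.12 with overlapping groups.

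Alveolar type 2 genes, which make and secrete surfactant, leaned lower. Of 38 measured 37 lay below 0, with a median of -0.36, and 8 had Double below Nkx without overlap. The list's mean read 14.45, 14.14 and 14.00 in Nkx and 14.03, 13.52 and 13.93 in Double: Double 2 was the lowest of the 6, Nkx 3 lay just below Double 1, and the groups overlapped. Sftpc, a type 2 surfactant protein and among the most abundant genes of these libraries, was at -0.35 ± 0.31, and Slc34a2, the phosphate transporter of type 2 cells, read 17.92, 17.35 and 17.24 in Nkx and 17.67, 16.44 and 17.08 in Double (-0.44 ± 0.28). Etv5, an FGF-responsive factor of type 2 cells, read 13.91, 14.03 and 13.96 in Nkx and 13.62, 13.26 and 13.68 in Double, without overlap (-0.45 ± 0.14). Because of quantile normalization a difference in genes as abundant as Sftpc is a change of rank.

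Enzymes of fatty acid and cholesterol synthesis, which feed surfactant lipid, leaned the same way by less. Of 42 measured 35 lay below 0, with a median of -0.20, and 5 had Double below Nkx without overlap. Scd1, a fatty acid desaturase, read 16.84, 15.68 and 15.76 in Nkx and 16.27, 14.24 and 15.09 in Double (-0.89 ± 0.42), with overlap. Lss, lanosterol synthase, was at -0.44 ± 0.14 without overlap.

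Alveolar type 1 genes, of the flat cells of gas exchange, had a median of -0.15, with 31 of 38 below 0 and 3 non-overlapping, all below. Akap5, a kinase anchor, was at -0.61 ± 0.22 and Clic5, a chloride channel protein, at -0.44 ± 0.18. Timp3, a metalloproteinase inhibitor and the most abundant of the list, read 16.94, 16.72 and 16.67 in Nkx and 16.77, 15.74 and 17.03 in Double, where Double 2 alone was low. The list's median changed sign in 2 of 25 alternatives.

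Motile cilia genes all lay below 0: 42 of 42, with a median of -0.36 and a range of -0.63 to -0.04. For 28 of the 42 all 3 same-numbered differences were negative, against 15.7% of all genes. Groups did not overlap for 6 of the 42, all with Double below, against 3.91% of all genes. The list's mean read 10.72, 10.02 and 10.22 in Nkx and 10.23, 9.91 and 9.77 in Double, so Nkx 2 lay below Double 1. Tekt1, a ciliary filament protein, was at -0.44 ± 0.20 and Dnaic1, an outer arm dynein chain, at -0.56 ± 0.24. Foxj1, the master factor of ciliated cells, read 10.32, 9.88 and 9.55 in Nkx and 9.86, 10.42 and 9.36 in Double, a difference of -0.04.

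Club and other secretory cell genes leaned lower by sign, while the groups overlapped in the list's mean. That mean read 12.27, 11.99 and 11.87 in Nkx and 11.79, 12.16 and 11.80 in Double. Same-numbered differences were all lower for 5 members and all higher for 4. Of 25 measured 19 lay below 0, with a median of -0.13 that stayed between -0.26 and -0.03 over the 25 alternatives. For 2 of them, Scgb1a1 and the carboxylesterase Ces1d (-0.29 ± 0.15), Double lay below Nkx without overlap, and for none above. Scgb3a2, the other abundant secretoglobin, read 17.67, 17.67 and 17.35 in Nkx and 17.08, 17.50 and 17.35 in Double (-0.26 ± 0.25). Cbr2, a carbonyl reductase of club cells, was at -0.22 ± 0.38.

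Goblet cell and mucus genes had a median of -0.07, with 11 of 24 above 0 and 13 below, and the median changed sign in 2 of 25 alternatives. Same-numbered differences were all lower for 8 and all higher for 4. Double lay above Nkx without overlap for 3 members and below for 1, Agr3 (-1.31 ± 0.36). Slc12a2, an ion cotransporter and among the most abundant members, was at -0.24 ± 0.23 with overlap. Muc5ac, a gel-forming mucin, read 7.33, 7.49 and 7.05 in Nkx and 8.32, 9.17 and 8.05 in Double (1.23), without overlap. Muc5b, the airway gel-forming mucin, varied from 10.66 to 13.95 among the Nkx libraries alone and differed by 0.17. Ern2, an endoplasmic reticulum stress sensor of mucous cells, read 8.45, 8.27 and 8.06 in Nkx and 9.31, 10.68 and 8.90 in Double (1.38 ± 0.46), against a WT mean of 3.75.

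Genes of stomach, gut and liver epithelium were balanced around 0 by sign. Of 22 measured 11 lay above 0 and 11 below, with a median of 0.01. Double lay above Nkx without overlap for 3 of the 22, Spp1 among them, against 4.7% of all genes, and below for 0. Same-numbered differences were all higher for 4 and all lower for 3. Ctse, a gastric aspartic protease, read 6.41, 6.66 and 6.73 in Nkx and 7.61, 7.59 and 7.41 in Double (0.94 ± 0.30), against a WT mean of 4.92. Guca2a, guanylin, read 11.31, 11.89 and 10.58 in Nkx and 10.74, 12.33 and 10.22 in Double, a difference of -0.16 ± 0.96 at a WT mean of 4.00. The 2 genotypes that carry Nkx2.1-GFP shared its high level.

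Neuroendocrine genes had a median of -0.11 over 14 measured. Ddc and Calca, the calcitonin peptide precursor, differed in opposite directions. Calca read 10.16, 9.13 and 9.98 in Nkx and 8.89, 8.13 and 9.09 in Double, a difference of -1.05 ± 0.33 (limma adjusted p = 0.0673 with the block), and both groups stood above the WT mean of 7.91.

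MHC class II genes, which professional antigen-presenting cells and type 2 cells express, had the lowest median of the lists of cell types and processes, -0.55 over 9 measured, with 8 below 0 and 5 non-overlapping below. The list's mean read 9.77, 9.31 and 9.13 in Nkx and 8.93, 8.70 and 9.04 in Double, without overlap. H2-Aa read 8.98, 8.30 and 8.24 in Nkx and 8.04, 6.87 and 7.41 in Double, and H2-Ab1 was at -0.92 ± 0.36. The leukocyte list as a whole had a median of -0.03 over 18 measured, with list means of 4.50 to 5.71 in Nkx and 4.70 to 5.36 in Double, but -0.65 without Nkx 3. The part of leukocytes in the class II values was not tested.

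Interferon response genes had a median of -0.24, with 24 of 28 below 0, but only 1 non-overlapping on each side. The median moved to -0.09 without Nkx 3. Gbp2, a guanylate-binding protein, read 7.49, 7.49 and 7.72 in Nkx and 7.31, 6.84 and 6.54 in Double, without overlap (-0.67 ± 0.26).

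Immediate early genes, which tissue dissociation also induces, lay higher. Of 27 measured 25 were above 0, with a median of 0.35, and 19 had 3 positive same-numbered differences against 16.3% of all genes, while 4 had groups that did not overlap. The list's mean read 11.82, 12.16 and 11.97 in Nkx and 12.29, 12.34 and 12.32 in Double, without overlap. Atf3, a stress-induced factor, was at 0.59 ± 0.22, Jun at 0.45 ± 0.18 and Fos at 0.35 ± 0.21. The part of cell handling in the other differences was not tested.

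Genes of the unfolded protein response had a median of 0.15 with 30 of 34 above 0, and general epithelial genes one of 0.21 with 26 of 30 above 0. Epcam, the protein the beads bind, read 13.11, 13.49 and 13.34 in Nkx and 13.46, 14.00 and 13.58 in Double, a difference of 0.37 ± 0.18 with overlapping groups. Krt19, a simple epithelial keratin, was at 0.67 ± 0.36. Beside these, endothelial markers had a median of -0.23 (13 of 16 below 0), and fibroblast, muscle and mesothelial markers one of 0.07 (11 of 21 above). Erythroid genes were nearly absent, with 2 of 20 measured. The part of purity in the epithelial values was not tested.

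Developmental signalling genes of the lung bud had a median of -0.03 over 53 measured, 25 above 0 and 28 below. Double lay below Nkx without overlap for 8 of them, against 3.91% of all genes, and above for 2, Id3 and Igf2bp3; same-numbered differences were all lower for 14 and all higher for 6. The 8 included Axin2, Etv5 and Wnt3a, a Wnt ligand (-0.95 ± 0.31). Fgfr2, the receptor of the FGF that drives branching, read 15.52, 15.24 and 15.49 in Nkx and 15.34, 15.16 and 14.89 in Double (-0.29 ± 0.14). Medians near 0 were also found for p53 targets (0.01 over 25), glycogen metabolism (0.00 over 20), IGF genes (0.06 over 13) and ion and water transport (-0.04 over 22).

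Xenobiotic enzymes had a median of -0.04 over 31 measured, 13 above 0 and 18 below, with 5 non-overlapping above and 3 below. Same-numbered differences were all higher for 9 and all lower for 9. The most abundant members, Ces1d (-0.29 ± 0.15, without overlap) and Aldh1a7 (-0.20 ± 0.16, with overlap), lay lower, and the 2 with the smallest p-values lay higher. Gsto1, a glutathione transferase, read 12.60, 12.65 and 12.54 in Nkx and 13.29, 14.12 and 13.19 in Double (0.93 ± 0.22). Cyp2s1, a cytochrome P450 of airway and squamous epithelium, read 12.45, 12.57 and 12.22 in Nkx and 13.11, 14.21 and 13.05 in Double (1.04 ± 0.28). In both genes Double 2 was the highest of the 6 libraries and no groups overlapped.

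**Figure D4:**
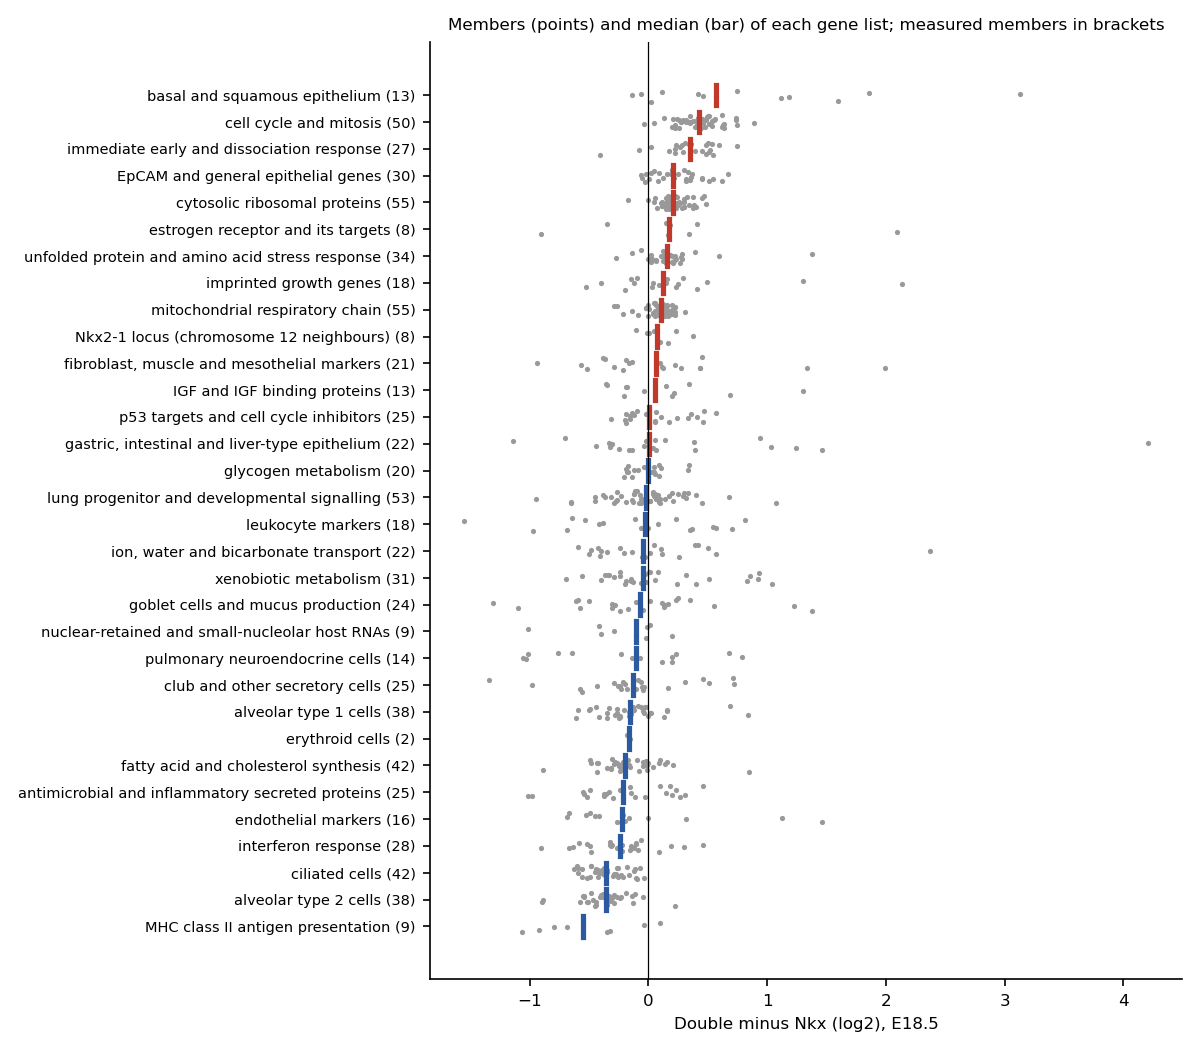
Fitted difference of Double from Nkx (horizontal, log2) for each measured member of 32 gene lists (points) with the list's median (bar, red above 0 and blue below); the number measured is in brackets. Cell cycle members cluster around 0.43 and motile cilia members around -0.36, while stomach, gut and liver members spread around 0.01 with Spp1 at 4.21.

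The NANCI allele was also added on the wild-type background, as 2 copies, in the NANCI libraries. No gene passed there (limma, 0 of 13750). At an unadjusted p under 0.05 there were 426 genes (3.1%), again a share below that threshold. The 2 comparisons use different libraries. Across the 13750 genes their differences had a Pearson correlation of -0.087 and a Spearman correlation of -0.148, which describes these 12 libraries, and 42.5% of genes had the same sign in both. Copy number differs between the backgrounds. So does sex: all 3 NANCI libraries had a male pattern while 2 of the 3 WT libraries had a female one, so sex and the allele cannot be fully told apart in NANCI minus WT. The 2 values of a gene are therefore set side by side.

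At an unadjusted p under 0.05 in both, 45 genes remained, of which 23 had the same direction and 22 the opposite one. The 23 make up 4.11% of the 559 genes and 5.4% of the 426. Those higher on both backgrounds included Esr1, Rab15 (0.65 and 0.86), Ern2 (1.38 and 2.07), Plekha6 (1.38 and 0.70), Pla2g10 (1.64 and 0.99), Grhl3, a grainyhead factor of epithelial barrier genes (1.03 and 0.66), and Pkp1, a desmosomal plakophilin (1.18 and 1.45), where the first value is Double minus Nkx and the second NANCI minus WT. Among the 5 lower on both was Ms4a6c, a gene of monocytes, at -1.88 and -2.07, although the Double libraries lay at a mean of 1.37, near the lowest values. Among the 22 with opposite directions were Atf3 (0.59 and -0.99), Jun (0.45 and -0.45) and Nfkbia (0.38 and -0.58), all higher in Double and lower in NANCI. Casq2, a calcium-binding protein of muscle, was at 2.04 and -1.23 and Arhgap40 at 3.12 and -2.69, both at low levels, while Fmo2, a flavin monooxygenase of lung, was at -0.56 and 0.66. The genes of both kinds were picked after their values were seen. Rab15 lay between 11.21 and 11.43 in the 3 WT libraries and between 12.04 and 12.47 in the 3 NANCI ones. On the Nkx2.1-GFP background it lay between 11.58 and 11.85 without the NANCI allele and between 12.28 and 12.47 with it. The allele carriers were above the non-carriers on either background.

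The test of the difference between the 2 differences found no gene past the threshold (limma interaction, 0 of 13750, smallest adjusted p 0.33). At an unadjusted p under 0.05 it gave 556 genes (4.04%), again a share below that threshold. Without WT 2 it found 2 genes, Spp1 (6.04 ± 0.67, limma adjusted p = 0.00871) and the gene model Gm13394 (-12.62 ± 0.35, limma adjusted p = 3.64e-09), which was high in WT 2 alone among the WT libraries. Ddc had an interaction of 1.45 ± 0.23 (limma adjusted p = 0.33): it was 0.79 higher in Double than in Nkx and 0.67 lower in NANCI than in WT. Spp1 had an interaction of 5.28 ± 0.87 at the same adjusted p, with NANCI at 1.08 below WT, where 1 of 3 WT and 2 of 3 NANCI libraries were at the lowest value. For Mucl3 the interaction was 1.73 ± 0.35 (limma adjusted p = 0.564), with NANCI minus WT at 0.45.

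**Figure D5:**
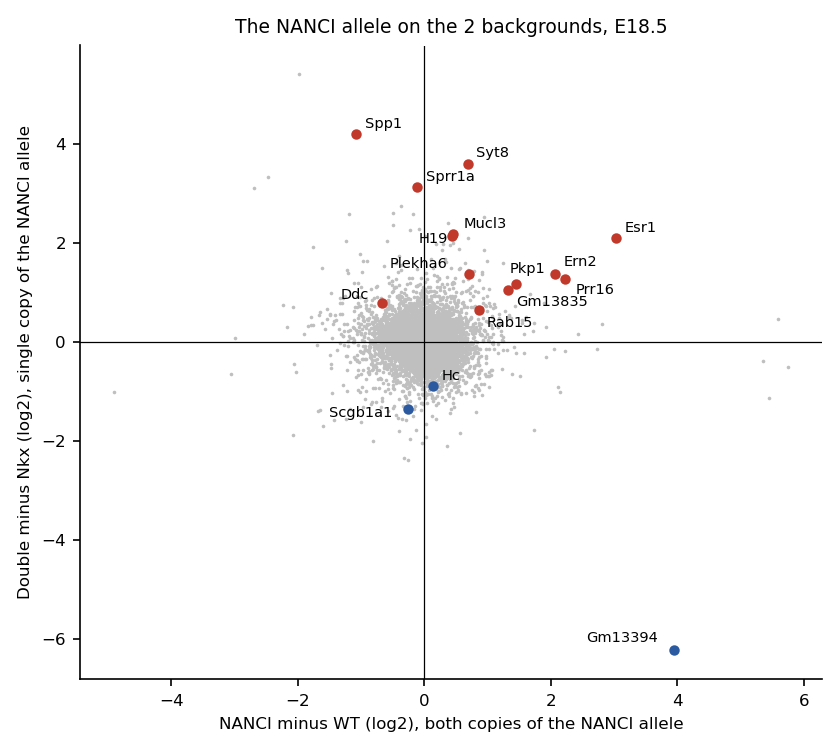
Double minus Nkx (vertical, log2, 1 copy of the NANCI allele on the Nkx2.1-GFP background) against NANCI minus WT (horizontal, log2, 2 copies on the wild-type background) for 13750 genes, with named genes coloured by the sign on the vertical axis. Esr1 is displaced on both axes (2.1 and 3.02), Spp1, Syt8 and Sprr1a mainly on the vertical one.

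The same 2 genotypes were measured at 6 months in 7 other libraries, 3 Nkx and 4 Double, from cells sorted by flow cytometry. Ages were not tested against each other because the enrichment differed with age. At 6 months 3460 of 15958 genes passed (21.7%), 1629 higher (10.2%) and 1831 lower (11.5%), and the median size of a difference was 0.317 against 0.137 at E18.5, at median standard errors of 0.198 and 0.222. Of the 535 genes with an unadjusted p under 0.05 at E18.5 that were also measured at 6 months, 221 passed there in the same direction and 29 in the opposite one.

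Mucl3 was higher at 6 months as well, by 2.54 ± 0.46 (limma adjusted p = 0.00271), as were Syt8 by 6.11, Tub by 3.01, Sprr1a by 2.94, Esr1 by 2.79 and Plekha6 by 1.58, all past the threshold. Spp1 was 1.17 higher without passing (limma adjusted p = 0.292). Of the genes lower at E18.5, Agr3 (-2.13), Dnaja4 (-1.41) and Axin2 (-1.43) were lower and passed. Igf2, which differed by 1.30 in the embryo, was at -0.43 at 6 months with both groups near 7, and Vnn1 and Gif were higher there, by 1.10 and 5.24. Scgb1a1 differed by 0.59 without passing (limma adjusted p = 0.596). At that level a difference is a step between top ranks, and the 3 Nkx libraries shared the value 20.24.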

How the data were processed

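RNA was sequenced from 12 E18.5 and 10 6-month libraries of mouse lung epithelium. The submitters' processing notes list STAR, limma and the build mm9, without their settings. The authors deposited 1 log2 expression value per Ensembl gene and library. The values share one set of ranks within an age and were taken as quantile-normalized log2 values, which is inferred, so read depth is unknown. Symbols came from GENCODE on GRCm38 for 99.2% of E18.5 gene IDs.

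Differences were fitted over all 12 E18.5 libraries in R 4.3.3 with limma 3.58.1 (lmFit, eBayes with a mean-variance trend, 8 residual degrees of freedom, Benjamini-Hochberg over 13750 genes, threshold 0.05); the fit was tested on simulated data. Adjusted p-values are limma's throughout. The 6-month fit used 10 libraries. Values after ± are standard errors. Deviations from the group means correlated at 0.298, 0.504 and 0.18 for numbers 1, 2 and 3, and at 0.28, 0.491 and 0.063 without Xist and Y-linked genes, where Nkx 3 with Double 1 gave 0.203. The labels do not say what a number shares, so the pairing is uncertain, above all for number 3, and the fit with the number as a block is an alternative. Named genes were, per direction, 12 averaging 5 or more over the 6 libraries whose symbols are no gene-model names, passing genes first and then the smallest p-values, together with the Nkx2-1 locus and, per list, passing members or else the 2 most abundant and the 2 with the smallest p-values. Other genes, such as Krt4, Krt17, Foxj1, Muc5ac and Muc5b, were picked after their values were seen. The genes, lists and comparison were chosen with earlier results of these data known. Alternatives were 25 other settings of the main fit.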

Additional observations from a re-analysis of the deposited data

Results flagged for a closer look

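Among the 24 named genes tested, the lowest of the 4 Double libraries at 6 months stood apart for Scgb1a1, at 19.74 against a group mean of 20.83. A test of this kind picks out about 1 group in 20 by chance. After quantile normalization a difference in so abundant a gene is a change of rank. The 3 Nkx libraries of that age all read 20.24 (SD 0.0), so the spread here is one of steps between top ranks. Gif, gastric intrinsic factor, was 5.24 higher in Double than in Nkx at 6 months and 0.56 lower at E18.5; the difference between the ages was not tested.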

How the results depend on the processing

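The count of genes passing was 1 without a replicate block over all 12 libraries and 1 with the replicate block there, and 3 without it and 9 with the replicate block in the 2 groups alone. The 3 genes were Gm13394, Spp1 and Syt8, not Mucl3. Library weights gave the most, 26, where the weights did not fully converge. Among settings chosen after seeing the data, a covariate standing in for the unknown depth (how many different values occur in the lower part of each library) gave 3, and leaving out the number 2 libraries of both groups 0. Leaving out 1 library at a time gave 0 to 1 gene for Nkx and Double libraries, and 1 to 3 for WT and NANCI libraries, the latter also chosen after seeing the data. The count of 4399 genes with differences of one sign became 6504 to 8342 when a library was left out, since only 2 pairs then remain. The interaction gave 0 to 2 genes without single libraries (2 without WT 2), and the 6-month count of 3460 became 2204 to 3492 (2204 without Nkx 1) and 2285 with the replicate block. Mucl3 passed in 18 of 25 alternatives, at differences of 1.95 to 2.45. None of the 24 genes named per direction changed direction in any alternative: 565 values kept their side of the threshold, 26 passed newly and 7, all of Mucl3, no longer passed. List medians moved by more than the spread between libraries in 9 of 825 cases. The female libraries alone (chosen after seeing the data) passed Gm13394 and not Mucl3. Depth is unknown, so no counting limit can be given for low genes.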

Other observations

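Around H19 and Igf2 on chromosome 7, 8 genes within 250000 bases on either side were measured. Syt8 (3.61), H19 (2.14), Igf2 (1.30) and Igf2os (1.07) had every Double library above every Nkx library, while Ctsd (0.33), Lsp1 (0.38), Mrpl23 (0.37) and the gene model Gm7290 (0.01) overlapped. Igf2os overlaps Igf2 on the other strand and read 7.13, 7.65 and 7.49 in Nkx and 8.29, 8.77 and 8.43 in Double; since it is not given whether reads kept their strand, the 2 cannot be told apart. In NANCI against WT the same genes differed by 0.69, 0.43, 0.24 and 0.38.

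Genes of mesothelium and urothelium-like surface were picked out after their values were seen. Upk3b, a uroplakin that marks mesothelium, read 5.63, 5.87 and 5.18 in Nkx and 6.47, 8.04 and 8.17 in Double (2.0 ± 0.53, limma adjusted p = 0.647) and Upk1b differed by 1.34 ± 0.56, while Msln, mesothelin, read 15.12, 15.53 and 14.83 in Nkx and 15.24, 16.07 and 15.52 in Double. At 6 months Upk3b and Upk1b were lower in Double, by 3.17 and 2.08 on the log2 scale.

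The gene model Gm13394 on chromosome 2, outside the rule for named genes, had the most negative difference of all genes. It read 9.62, 9.90 and 9.51 in Nkx and 3.46, 3.52 and 3.35 in Double, a difference of -6.23 (limma adjusted p = 0.443, and with the replicate block 0.000155 in the 6 libraries and 0.472 in all 12). WT libraries read 3.12, 10.35 and 2.89 and NANCI libraries 9.49, 9.32 and 9.38, so it took 2 levels within WT. The pseudogene Hmgn2-ps1 had the most positive difference, 5.42, and likewise took 2 levels in WT (3.73, 10.17 and 10.53) and in Double (10.82, 4.80 and 10.90).

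Cytosolic ribosomal protein genes lay above 0 for 53 of 55 members, with a median of 0.20, yet none had groups that did not overlap. Their mean read 13.36, 14.03 and 13.49 in Nkx and 13.43, 14.27 and 13.83 in Double, with library 2 the highest in both groups, and for 38 of the 55 all 3 same-numbered differences were positive. Genes of the mitochondrial respiratory chain lay above 0 for 47 of 55 members, with a median of 0.10, which changed sign in 1 of 25 alternatives.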
